A study of Homo sapiens with 6 samples.

Results

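The nuclear genes for the subunits of the mitochondrial respiratory chain were taken from the gene table by their symbols, as those beginning with NDUFA, NDUFB, NDUFC, NDUFS or NDUFV and a digit, with UQCR, with COX4 to COX8 or with ATP5, together with SDHA, SDHB, SDHC, SDHD and CYC1. Of 198 genes with such symbols, 107 pseudogene or antisense entries were left out, which left 91 of the 35993 genes in the table. Of these, 83 encode subunits, 36 of complex I, 4 of complex II, 9 of complex III, 17 of complex IV and 17 of complex V, and the other 8 do not. Those 8 are an inhibitor of ATP synthase (ATP5IF1), a factor that joins complexes together (COX7A2L), paralogs (NDUFA4L2, UQCRHL, ATP5MGL), read-through genes (NDUFC2-KCTD14, ATP5MF-PTCD1) and a noncoding divergent gene (NDUFA6-DT). NDUFA4 was counted in complex IV, where its protein resides. Complex I also has a subunit whose symbol lies outside the pattern, NDUFAB1, and it is given separately.

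RNA was sequenced from MIA PaCa-2, an established human pancreatic cancer cell line, in 3 untreated libraries (labelled as controls) and in 3 libraries from cells given 4 µM rhCYGB, recombinant human cytoglobin protein made in E. coli, for 48 h. All cells had been moved to medium with 1% FBS the day before treatment, and the labels name no protein or buffer given to the control cells. Cytoglobin is a heme protein of the globin family. The comparison asks how the transcripts of each respiratory complex differed between rhCYGB-treated and untreated cells.

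The respiratory chain sits in the inner mitochondrial membrane. Complex I passes electrons from NADH, and complex II those from succinate, to coenzyme Q. Complex III passes them on to cytochrome c and complex IV to oxygen, while complexes I, III and IV pump protons that complex V, the ATP synthase, uses to make ATP. Mitochondrial DNA encodes the central membrane subunits of all but complex II, and nuclear genes encode the rest, so the subunits of one complex are made in different compartments and assembled together.

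The libraries held between 34838399 and 42271299 counts on genes. After removal of genes with too few counts, 14728 genes were tested, and library sizes were scaled with TMM factors of 0.932 to 1.06. Values per library are given as CPM, counts scaled to the TMM-adjusted library size, in which 3 counts correspond to 0.0669 to 0.0902. Libraries within a group differed by more than counting error (chi-square over degrees of freedom 4.67 to 6.61), and nothing in the labels says whether they came from separate cultures, so the p-values measure only the spread between these libraries.

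Markers of cell type and proliferation moved with the groups, and their part in the results was not tested. The 5 epithelial markers summed to 3844 to 4074 CPM in untreated and 2961 to 3167 CPM in rhCYGB libraries. KRT8 fell from 2085 to 1190.2 CPM and KRT19 from 260.4 to 171 CPM, KRT18 (1648 to 1694 CPM) and KRT7 showed no call, and EPCAM had 0 counts. The 6 fibroblast markers summed to 9.72 to 9.91 CPM in untreated and 5.22 to 5.67 CPM in rhCYGB libraries. Of these COL3A1 fell from 3.99 to 0.119 CPM, ACTA2 (5.61 to 5.30 CPM) showed no call, COL1A1 and PDGFRB had 10 counts or fewer in a library, and DCN and LUM had 0. Of 3 endothelial markers CDH5 fell from 117 to 12.2 CPM, VWF had 8 counts or fewer and PECAM1 0, and of 3 immune markers CD68 rose from 36.02 to 71.4 CPM while PTPRC and CD3E had 0 counts. The proliferation markers MKI67 and TOP2A fell from 277 to 69.3 CPM and from 531 to 187 CPM.

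Most of the nuclear respiratory chain genes were lower in rhCYGB-treated cells, and they were lower to unequal degrees within every complex. Of the 77 subunit genes with enough counts for the test, 67 (87.0%) were lower, 3 were higher and 7 showed no call by edgeR's quasi-likelihood test (adjusted p under 0.05, by the Benjamini-Hochberg method across the 14728 genes). Among all genes tested, 38.6% were lower and 39% higher by the same call. The median log2 fold change of rhCYGB-treated against untreated cells was -0.42 over the subunit genes, 74.6% of the untreated level, and -0.00457 over all genes. Falls of 2-fold or more were seen in 5 subunit genes, NDUFC2, NDUFB3, SDHC, ATP5MC1 and ATP5MF, or 5 of 77 against 14.7% of all genes tested. This count rests on the scaling, with 10 of 77 under upper-quartile factors, total counts or FPKM, against 9.91 to 18.5% of all genes under the same settings. In 67 subunit genes every rhCYGB library lay below every untreated library and in 3 every one lay above, against 39.7% and 39.8% of all genes. These 67 are not the same as the 67 called lower. They include NDUFA6, which showed no call, and leave out NDUFC1. NDUFC1 was called lower with overlapping groups, at 23.4 to 26.4 CPM untreated and 19.3 to 24.3 CPM after rhCYGB. In bulk RNA, fewer cells carrying a transcript and less of it per cell cannot be told apart. Each tested subunit gene had between 463 and 34591 counts in a library, and standard errors of the log2 fold changes lay between 0.0327 and 0.0834.

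By complex, 31 of 36 tested genes of complex I were lower with a median log2 fold change of -0.44, 3 of 4 of complex II with -0.60, all 9 of complex III with -0.43, 8 of 11 of complex IV with -0.26 and 16 of 17 of complex V with -0.45. The highest gene of each complex stood at 0.25, 0.07, -0.17, 0.11 and 0.36, and the lowest at -1.48, -1.24, -0.82, -0.89 and -1.43. Complex III was thus the complex with all its genes called in one direction, and complex IV the one with the smallest median. With upper-quartile factors or total counts in place of TMM factors, the median of all genes moved by -0.14 and -0.16. The subunit genes moved with it, since such factors shift all genes of a library alike. The difference between the medians of subunit and all genes, -0.42, could therefore not change with them. Among the other alternatives tried, this difference ran from -0.49 (FPKM in place of counts) to -0.36 (rhCYGB library 3 left out).

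**Figure D1:**
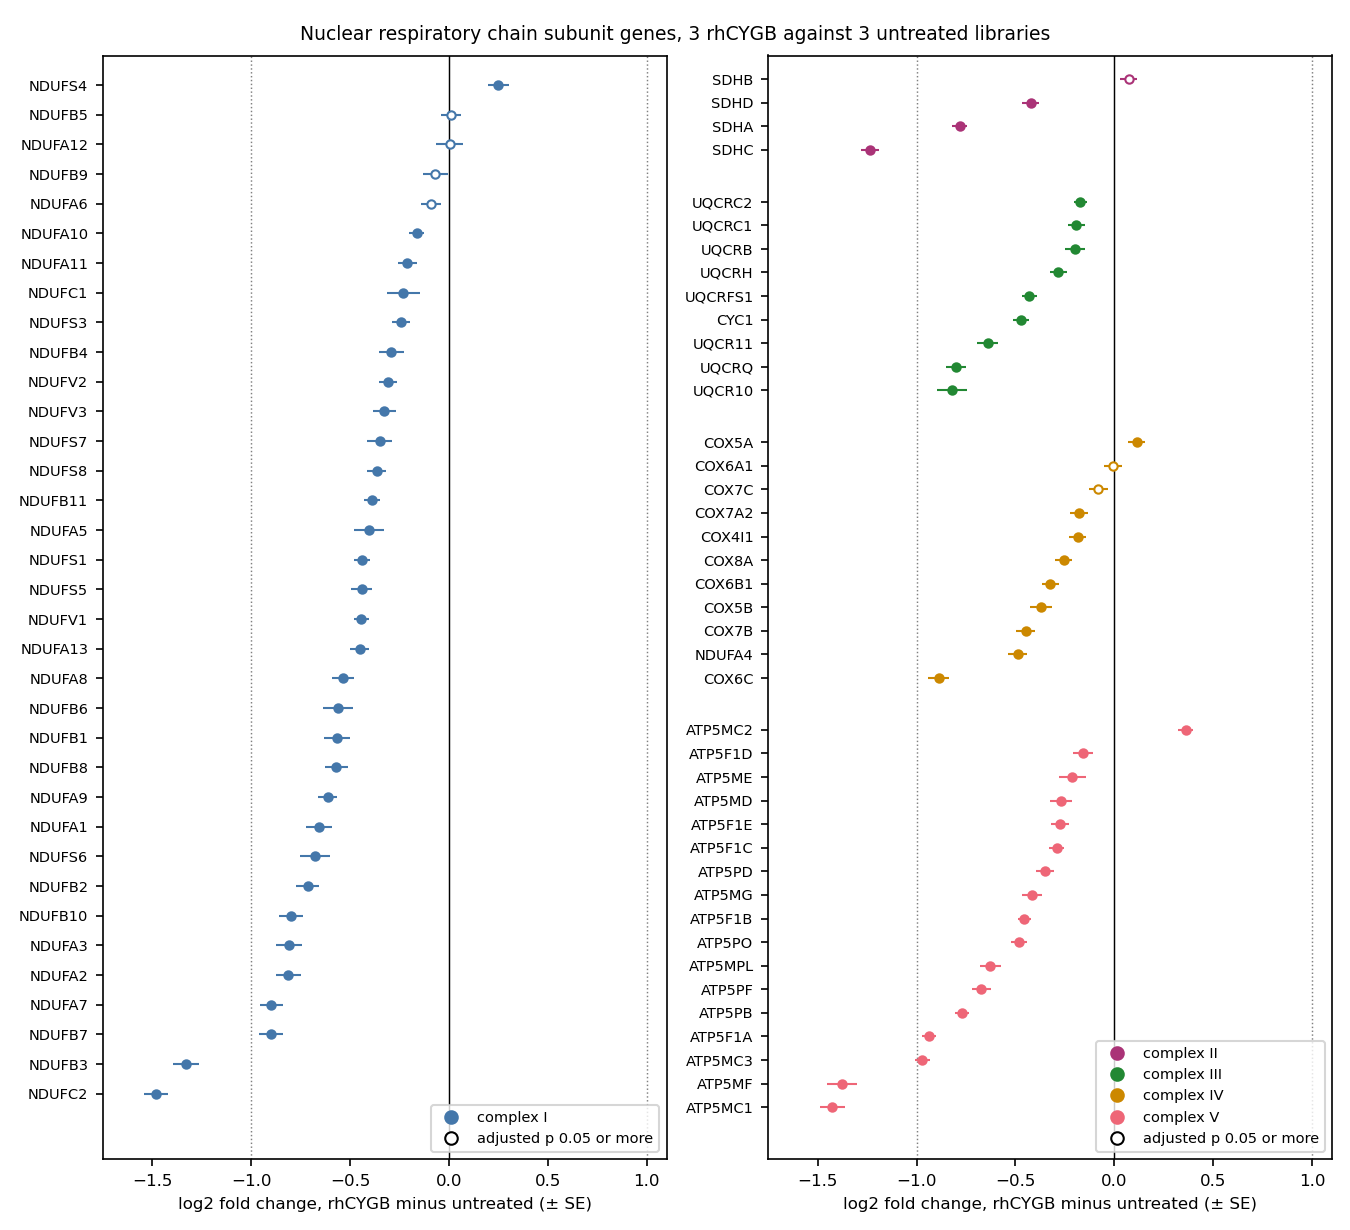
Log2 fold change (x axis, rhCYGB minus untreated, ± SE derived from edgeR's test) of 76 of the 77 tested nuclear subunit genes (y axis), complex I on the left and complexes II to V on the right. Open symbols are the 7 genes without a call and dotted lines mark 2-fold, which 5 genes exceed on the lower side.

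The summed CPM of the subunit genes weighs the abundant genes more heavily. As a percentage of the untreated mean, the sum for complex I was 99.96, 101 and 98.7 in the untreated libraries and 77.3, 76.7 and 71.3 in the rhCYGB libraries. That for complex II was 101, 99.97 and 99.1 in the untreated libraries and 65.2, 65.3 and 63.7 in the rhCYGB libraries, and that for complex III was 101, 101 and 98.1 in the untreated libraries and 78.3, 78.5 and 73.5 in the rhCYGB libraries. In all 3 complexes the groups were apart, with complex II the most uniform among the rhCYGB libraries. Complex IV was at 100.1, 102 and 97.9 in the untreated libraries and 88.6, 87.9 and 81.3 in the rhCYGB libraries. Complex V was at 99.6, 101 and 99.6 in the untreated libraries and 68.8, 67.95 and 65.6 in the rhCYGB libraries. Library 3 was the lowest rhCYGB library for every complex. Of the summed subunit CPM within a library, complex IV took 15.6 ± 0.15% in untreated and 18.2 ± 0.22% in rhCYGB-treated cells, and complex V 34.6 ± 0.23% and 31.7 ± 0.38% (mean ± SD, n = 3 libraries each). The mean share of complex I went from 30.3 to 30.9%, of complex II from 6.76 to 5.94% and of complex III from 12.7 to 13.2%. The groups did not overlap in any of the 5 complexes.

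**Figure D2:**
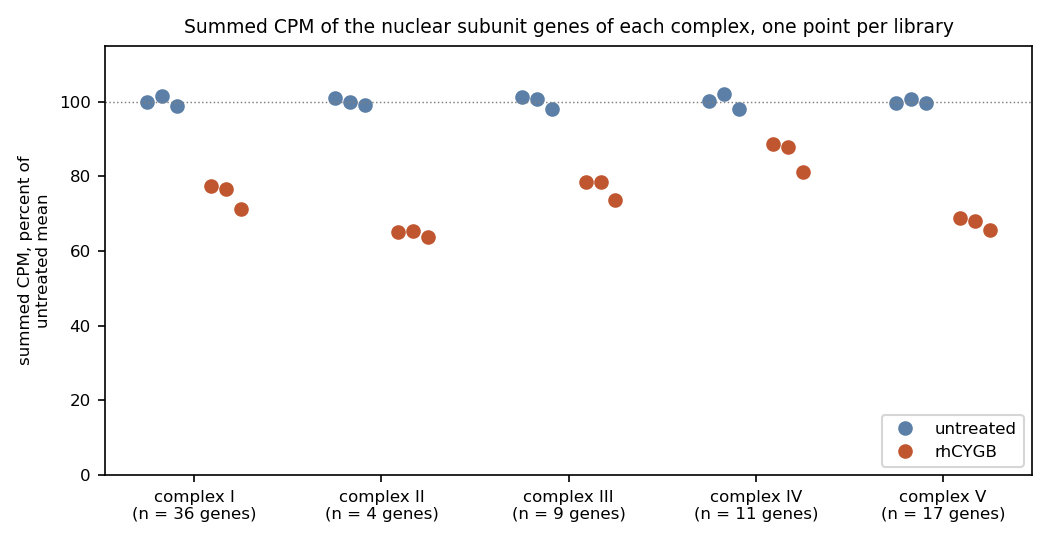
Summed CPM of the tested nuclear subunit genes of each complex (x axis), as a percentage of the untreated mean (y axis, from 0), with 1 point per library. All rhCYGB points lie below the untreated points of their complex, those of complex IV the highest at 81.3 to 88.6% and those of complex II the lowest at 63.7 to 65.3%.

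Complex I takes electrons from NADH at its matrix arm and pumps protons in its membrane arm. Its 7 nuclear core subunits, which carry the flavin and the iron-sulfur clusters or line the quinone site, were all lower and lay close together, with log2 fold changes from -0.44 (NDUFV1, which binds NADH and the flavin) to -0.24 (NDUFS3) and an SD between genes of 0.0719. The 29 accessory subunits, which surround this core, were spread from -1.48 to 0.25 with an SD of 0.386 and a median of -0.53, and 24 of them were lower. By symbol series, 10 of 12 NDUFA genes were lower (median -0.49) and 9 of 11 NDUFB genes, most of whose products lie in the membrane arm (median -0.56). Per transcript length, untreated levels in complex I ran from 7.43 FPKM for NDUFA5 to 195 FPKM for NDUFA1.

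NDUFC2, an accessory subunit of the membrane arm, is listed at chromosome 11, 77779343 to 77790908 in the deposited table, whose human genome build is not named. It was at 57.4, 57.4 and 58.1 CPM in the untreated libraries and 22.5, 20.8 and 18.7 CPM in the rhCYGB libraries. NDUFB3 (chromosome 2, 201936724 to 201950473), of the same arm, was at 35.001, 34.05 and 34.9 CPM in the untreated libraries and 14.3, 14.5 and 12.6 CPM in the rhCYGB libraries. In both genes every rhCYGB library lay far below every untreated library, with little spread in either group. Their changes were the furthest of the complex (log2 fold change -1.48, SE 0.0614, adjusted p = 6.49e-12 for NDUFC2 and log2 fold change -1.33, SE 0.0654, adjusted p = 4.75e-11 for NDUFB3, from edgeR's test). The next gene, NDUFB7, fell from 61.99 ± 1.13 to 33.2 ± 3.25 CPM (log2 fold change -0.90, SE 0.0620, adjusted p = 2.68e-09). NDUFC2 overlaps a read-through gene, NDUFC2-KCTD14, which had 26 counts or fewer in each library.

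Only NDUFS4 was higher in complex I. NDUFS4 is an accessory subunit near the NADH-oxidizing module, and its loss causes Leigh syndrome. It was at 47.5, 49.7 and 44.99 CPM in the untreated libraries and 57.4, 58.6 and 53.2 CPM in the rhCYGB libraries. All rhCYGB libraries were above all untreated libraries (log2 fold change 0.25, SE 0.0534, adjusted p = 0.000580). With upper-quartile factors, total counts or FPKM the rise was 0.08 to 0.11 and was not called. The 4 genes without a call were NDUFA6 (-0.09, adjusted p = 0.104 from edgeR's test), NDUFB9 (-0.07), NDUFA12 (0.00) and NDUFB5 (0.01). The groups overlapped in 3 of them and did not in NDUFA6, whose rhCYGB libraries were at 39.5 to 43.2 CPM and whose untreated libraries were at 43.7 to 44.8 CPM. With total counts or upper-quartile factors NDUFB5 turned to -0.15 or -0.13 and was called lower. NDUFAB1, the acyl carrier protein of complex I, fell from 51.97 ± 2.59 to 31.7 ± 1.76 CPM (log2 fold change -0.71, SE 0.0568, adjusted p = 1.59e-08).

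Complex II, succinate dehydrogenase, is wholly encoded in the nucleus and also serves the tricarboxylic acid cycle. Of its 4 genes 3 were lower, by unequal amounts, and the other showed no call. SDHC (chromosome 1, 161284166 to 161345130), a membrane anchor at the quinone site, was at 161, 159 and 159 CPM in the untreated libraries and 69.5, 63.5 and 70.4 CPM in the rhCYGB libraries, and no other gene of the complex fell as far (log2 fold change -1.24, SE 0.0437, adjusted p = 1.11e-12). SDHA, the flavoprotein that oxidizes succinate, was at 267, 263 and 268 CPM in the untreated libraries and 152, 162 and 150.1 CPM in the rhCYGB libraries. It was lower in all rhCYGB libraries (log2 fold change -0.78, SE 0.0383, adjusted p = 4.44e-11). SDHD, the other anchor, was at 87.4, 86.95 and 85.4 CPM in the untreated libraries and 66.6, 62.01 and 64.99 CPM in the rhCYGB libraries. Its groups were also apart, with a smaller fall (log2 fold change -0.42, SE 0.0428, adjusted p = 2.56e-07).

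SDHB (chromosome 1, 17345217 to 17380527), the iron-sulfur protein, was at 113, 113 and 105 CPM in the untreated libraries and 117, 119 and 111 CPM in the rhCYGB libraries. Here the groups overlapped and no change was called (log2 fold change 0.07, SE 0.0436, adjusted p = 0.147). With rhCYGB library 3 left out SDHB was at 0.10 (adjusted p = 0.046) and with a trend on transcript length taken out at 0.18 (adjusted p = 0.000241), in both cases called higher by edgeR's test. With upper-quartile factors, total counts or FPKM its direction turned, to between -0.09 and -0.07 without a call. The ratio of SDHC to SDHB counts within a library, which does not depend on how libraries are scaled, was 1.43, 1.41 and 1.52 in the untreated libraries and 0.593, 0.534 and 0.635 in the rhCYGB libraries. The ratio of the anchors SDHC to SDHD was 1.85, 1.83 and 1.86 in the untreated libraries and 1.04, 1.02 and 1.08 in the rhCYGB libraries. In both ratios the groups were far apart, and these are unequal changes rather than levels, since CPM does not correct for length.

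The upstream sequences of SDHB and SDHD are shown because these partners differed in response. They are the 250 bases before the RefSeq start site (GRCh38.p14) on the gene's strand, 5′ to 3′, with capitals marking the letters CCGGAAG (or CTTCCGG on the other strand), bound by ETS factors such as GABP, or CGCATGCG, bound by NRF1. SDHB is at chr1:17054033-17054282 on the minus strand and SDHD at chr11:112086623-112086872 on the plus strand.
SDHB: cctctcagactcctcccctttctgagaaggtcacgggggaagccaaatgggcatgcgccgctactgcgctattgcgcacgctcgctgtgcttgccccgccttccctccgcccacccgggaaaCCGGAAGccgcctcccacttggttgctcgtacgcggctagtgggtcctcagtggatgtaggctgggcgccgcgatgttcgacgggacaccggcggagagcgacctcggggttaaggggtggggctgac
SDHD: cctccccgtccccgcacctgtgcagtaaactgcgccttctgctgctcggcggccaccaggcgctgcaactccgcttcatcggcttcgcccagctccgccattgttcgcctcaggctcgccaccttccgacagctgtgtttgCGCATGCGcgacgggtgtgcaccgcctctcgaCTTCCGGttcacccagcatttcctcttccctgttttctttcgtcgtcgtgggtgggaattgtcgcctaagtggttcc
Both windows held the ETS letters, 128 bases before the start in SDHB and 77 in SDHD, and SDHD also held the NRF1 letters, 109 bases before its start. RefSeq windows were matched for SDHA, SDHB and SDHD and not for SDHC. Taken to 50 bases past the start, the window of SDHB also held AAGATGGC, letters bound by YY1, and that of SDHD did not. The window of SDHA, which fell further than SDHD, held none of these letters. Any link of the letters to the changes was not tested.

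Complex III, which takes electrons from reduced coenzyme Q, showed a graded fall across all 9 nuclear genes. The core proteins UQCRC1 (-0.19) and UQCRC2 (-0.17) and the small subunits UQCRB (-0.20) and UQCRH (-0.28) changed least. The redox subunits lay between, with CYC1, cytochrome c1, at -0.47 and UQCRFS1, the Rieske iron-sulfur protein, at -0.43. Other small subunits fell furthest. UQCR10 was at 40.6, 41.9 and 38.9 CPM in the untreated libraries and 22.5, 26.2 and 20.2 CPM in the rhCYGB libraries. UQCRQ was at 116, 113 and 112 CPM in the untreated libraries and 65.4, 70.4 and 60.5 CPM in the rhCYGB libraries, and UQCR11 fell from 107 ± 1.86 to 68.5 ± 5.79 CPM. None of the 3 showed overlap between the groups (log2 fold change -0.82, SE 0.0765, adjusted p = 9.86e-08 for UQCR10, log2 fold change -0.80, SE 0.0508, adjusted p = 1.01e-09 for UQCRQ and log2 fold change -0.64, SE 0.0533, adjusted p = 2.60e-08 for UQCR11, from edgeR's test). The core protein UQCRC2 was at 166, 166 and 163 CPM in the untreated libraries and 147, 147 and 145 CPM in the rhCYGB libraries, a small fall with tight groups (log2 fold change -0.17, SE 0.0350, adjusted p = 0.000375), and UQCRC1 fell likewise (log2 fold change -0.19, SE 0.0449, adjusted p = 0.00120). UQCRFS1 has 3 pseudogene copies in the table that held 4.86% of the counts of gene and copies together, the largest such share of any subunit gene.

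Complex IV, cytochrome c oxidase, uses nuclear subunits that exist in general and in tissue-specific forms. All 11 general forms were measured and none of the 6 tissue forms reached the test. COX4I2, COX6A2, COX7A1, COX7B2 and COX8C had 0 counts in every library, which allows up to 0.0902 CPM by counting error alone, and COX6B2, the testis form, had 6 counts or fewer in a library. Against COX4I1 (394 FPKM), COX6A1 (201 FPKM), COX7A2 (101 FPKM) and COX8A (185 FPKM) in untreated cells, the 5 forms with no counts were not detectable at this depth in either group.

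COX6C had the lowest value of complex IV. It was at 67.9, 67.3 and 67.2 CPM in the untreated libraries and 34.5, 39.4 and 35.6 CPM in the rhCYGB libraries, with the groups apart (log2 fold change -0.89, SE 0.0530, adjusted p = 4.85e-10). NDUFA4 fell from 79.1 ± 2.85 to 56.4 ± 1.82 CPM (log2 fold change -0.49, SE 0.0459, adjusted p = 1.05e-07), and COX7B from 102 ± 3.91 to 74.5 ± 4.04 CPM (log2 fold change -0.45, SE 0.0480, adjusted p = 4.99e-07). The changes of COX6B1 (-0.32), COX8A (-0.26), COX4I1 (-0.18) and COX7A2 (-0.18) were smaller and all were called lower by edgeR's test. COX6A1 (-0.01, adjusted p = 0.883 from edgeR's test) and COX7C (-0.08, adjusted p = 0.128) showed no call and their groups overlapped. With total counts COX6A1 was called lower at -0.17.

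COX5A was at 91.4, 89.1 and 86.3 CPM in the untreated libraries and 99.1, 97.1 and 92.5 CPM in the rhCYGB libraries. The rhCYGB libraries were all above the untreated ones by a small margin (log2 fold change 0.11, SE 0.0425, adjusted p = 0.0239). This call was lost with untreated library 2 or 3 or rhCYGB library 1 or 2 left out (adjusted p 0.0566 to 0.083), and with total counts, upper-quartile factors or FPKM the value turned to between -0.05 and -0.03 without a call. COX5B fell from 125 ± 5.46 to 97.02 ± 8.42 CPM (log2 fold change -0.37, SE 0.0561, adjusted p = 2.26e-05).

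Complex V, the ATP synthase, had 16 genes lower and 1 higher, with no gene left without a call. In the catalytic head, ATP5F1A, the alpha subunit, was at 676, 696 and 707 CPM in the untreated libraries and 369.6, 355 and 361 CPM in the rhCYGB libraries. ATP5F1B, the beta subunit that carries the catalytic sites, was at 765, 772 and 747 CPM in the untreated libraries and 565, 550.1 and 551 CPM in the rhCYGB libraries. Both fell in all libraries, ATP5F1A further (log2 fold change -0.94, SE 0.0349, adjusted p = 1.89e-12) than ATP5F1B (log2 fold change -0.45, SE 0.0327, adjusted p = 4.43e-09). The ratio of alpha to beta counts within a library was 0.883, 0.902 and 0.946 in the untreated libraries and 0.654, 0.645 and 0.654 in the rhCYGB libraries, with the groups apart. Both chains alternate in equal number around the head. The subunits of the central stalk changed less, with ATP5F1C (gamma) at -0.29, ATP5F1E (epsilon) at -0.27 and ATP5F1D (delta) at -0.16. The call of ATP5F1D was lost with untreated library 1 left out (adjusted p = 0.0755 from edgeR's test) and with a trend on transcript length taken out (adjusted p = 0.237).

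All 4 genes of the peripheral stalk, which holds the head still against the rotor, were lower. They were ATP5PB (subunit b, -0.77), ATP5PF (coupling factor 6, -0.67), ATP5PO (the oligomycin sensitivity protein, -0.48) and ATP5PD (subunit d, -0.35). ATP5PF overlaps GABPA, and NDUFC1 of complex I overlaps NAA15, with 2093 and 3879 counts in a library on average. NDUFA2, NDUFA3, ATP5F1E, ATP5PD and ATP5MD also overlap other genes, the most abundant of which had means of 484 to 1230 counts. Without a stated strand setting, reads of these overlaps could belong to either gene. The 5 small membrane subunits were lower as well. ATP5MF (chromosome 7, 99055781 to 99063790), subunit f, was at 143, 152 and 139 CPM in the untreated libraries and 55.4, 64.02 and 47.9 CPM in the rhCYGB libraries. It fell furthest of them, with no overlap between the groups (log2 fold change -1.38, SE 0.0750, adjusted p = 1.62e-10). ATP5MF shares sequence with the read-through gene ATP5MF-PTCD1, whose counts of 473, 690 and 200 in the untreated and 473, 31 and 22 in the rhCYGB libraries varied widely within each group, and with those counts added ATP5MF was at -1.36 (SE 0.0918, adjusted p = 1.92e-09 from edgeR's test). The remaining small membrane subunits lay between -0.63 (ATP5MPL) and -0.21 (ATP5ME).

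**Figure D3:**
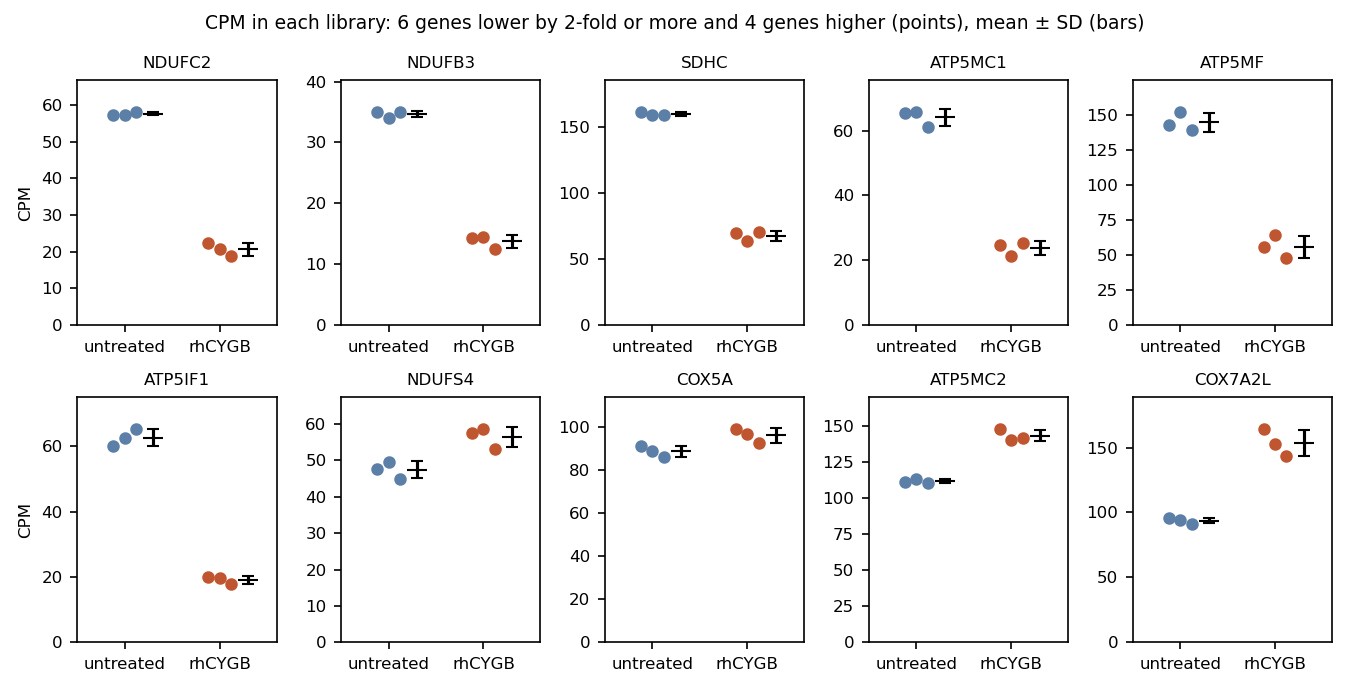
CPM (y axis, from 0) in each of the 3 untreated and 3 rhCYGB libraries (points, with mean ± SD beside them) of the 6 genes lower by 2-fold or more and of 4 of the 5 genes that were higher, NDUFA4L2 with few counts left out. No gene shows overlap between the groups, and the gap is smallest in COX5A, at 86.3 to 91.4 CPM untreated and 92.5 to 99.1 CPM after rhCYGB.

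The rotor ring of ATP synthase is built of subunit c, for which there are 3 genes, ATP5MC1, ATP5MC2 and ATP5MC3, that encode the same mature protein behind different import sequences. They moved in opposite directions. ATP5MC1 (chromosome 17, 46970149 to 46973233) was at 65.5, 65.7 and 61.03 CPM in the untreated libraries and 24.8, 21.3 and 25.2 CPM in the rhCYGB libraries. ATP5MC3 (chromosome 2, 176040986 to 176046438) was at 191, 200.3 and 193 CPM in the untreated libraries and 101, 100.1 and 97.4 CPM in the rhCYGB libraries. Both were lower in every rhCYGB library (log2 fold change -1.43, SE 0.0631, adjusted p = 1.38e-11 for ATP5MC1 and log2 fold change -0.97, SE 0.0378, adjusted p = 3.11e-12 for ATP5MC3, from edgeR's test). ATP5MC2 (chromosome 12, 54058944 to 54070114) was at 111, 113 and 111 CPM in the untreated libraries and 148, 141 and 142 CPM in the rhCYGB libraries. It was the one gene of complex V that rose, and stayed higher under every alternative tried (log2 fold change 0.36, SE 0.0374, adjusted p = 3.44e-07).

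Per transcript length, the 3 genes together gave 327, 336 and 323 FPKM in the untreated and 257, 235 and 252 FPKM in the rhCYGB libraries. This was a fall to 75.5% of the untreated mean. Unlike CPM, FPKM is not scaled by TMM factors, and in fits on FPKM the median log2 fold change of all genes was -0.09 or -0.11. ATP5MC2 alone went from 159 to 184 FPKM. Its share in the summed FPKM of the 3 genes was 48.3, 48.3 and 48.7% in untreated cells and 74.1, 74.6 and 73.5% after rhCYGB. ATP5MC1 went from 30.7 ± 0.67% to 13.4 ± 0.95% and ATP5MC3 from 20.9 ± 0.47% to 12.6 ± 0.44% (mean ± SD, n = 3 libraries each). Within each group the shares differed by less than 2 percentage points, and the groups did not overlap for any of the 3 genes. The sizes of these shares rest on the transcript lengths used for FPKM. By mean CPM, ATP5MC3 was the highest in untreated cells, at 195 against 112 for ATP5MC2 and 64.1 for ATP5MC1. After rhCYGB, ATP5MC2 was the highest by CPM too, at 144 against 99.4 for ATP5MC3 and 23.8 for ATP5MC1.

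**Figure D4:**
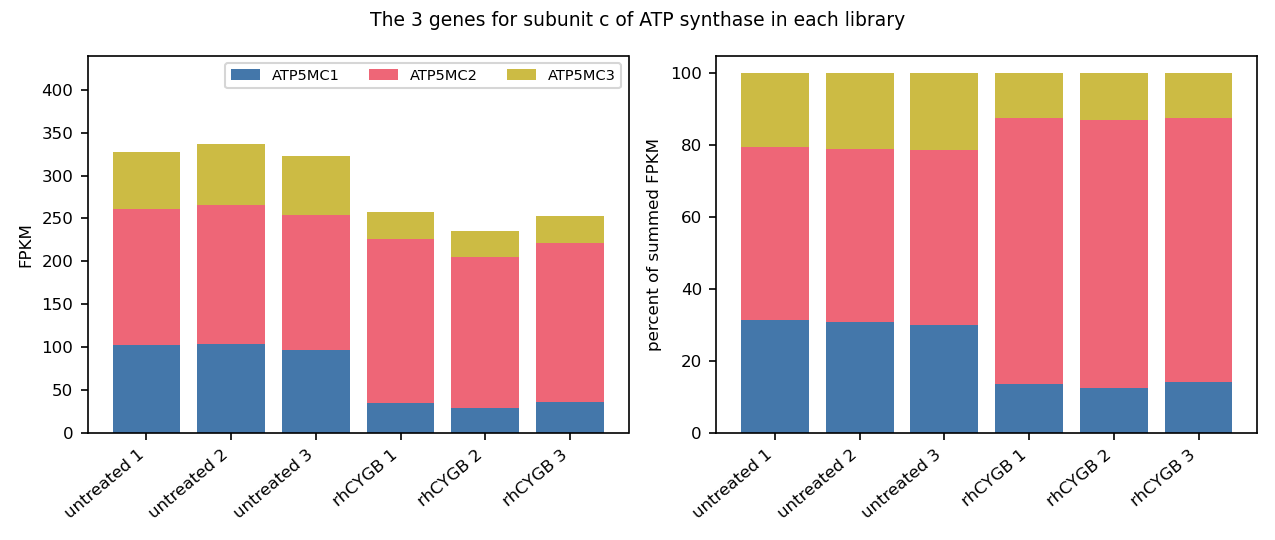
FPKM of ATP5MC1, ATP5MC2 and ATP5MC3 (left y axis, stacked) and their percentage of the summed FPKM (right y axis) in each library (x axis). The sum falls from 323 to 336 FPKM in untreated libraries to 235 to 257 FPKM in rhCYGB libraries while the share of ATP5MC2 grows from a mean of 48.4 to 74.1%.

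The upstream sequences of ATP5MC1 and ATP5MC2 are given because these genes for one protein changed in opposite directions. They are again 250 bases before the RefSeq start (GRCh38.p14), with capitals marking CCAAT, the letters bound by NF-Y, or CGCATGCG, those bound by NRF1. ATP5MC1 is at chr17:48892537-48892786 on the plus strand and ATP5MC2 at chr12:53676084-53676333 on the minus strand.
ATP5MC1: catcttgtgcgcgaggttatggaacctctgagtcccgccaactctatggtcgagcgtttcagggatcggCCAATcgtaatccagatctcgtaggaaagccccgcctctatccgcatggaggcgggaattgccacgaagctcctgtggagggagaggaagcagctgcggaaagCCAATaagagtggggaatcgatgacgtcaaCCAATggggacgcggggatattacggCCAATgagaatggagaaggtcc
ATP5MC2: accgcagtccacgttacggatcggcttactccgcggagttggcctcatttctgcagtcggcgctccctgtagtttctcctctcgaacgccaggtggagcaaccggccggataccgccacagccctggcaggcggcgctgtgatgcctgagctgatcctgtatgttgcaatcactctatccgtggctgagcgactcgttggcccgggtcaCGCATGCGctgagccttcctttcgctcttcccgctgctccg
The window of ATP5MC1 held CCAAT 4 times, 181, 78, 48 and 22 bases before the start, and neither the NRF1 nor the ETS letters. That of ATP5MC2 held the NRF1 letters once, 41 bases before the start, and no CCAAT. No window was matched for ATP5MC3.

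RefSeq windows of 300 bases, 250 before and 50 after the start, were matched for 64 of the 77 tested subunit genes and searched on both strands. CCGGAAG was found in 31.2% of them, against 19.3% of the 11072 windows of all tested genes and 10.7% of all 27305 windows. CGCATGCG, which reads the same on both strands, was found in 15.6% against 4% and 2.19%. AAGATGGC, bound by YY1, was in 17.2% against 5.34% and 3.03%, and CCAAT in 31.2% against 36.3% and 35.7%. Windows with the ETS or NRF1 letters made up 41.1% of the 56 matched genes called lower and 37.5% of the 8 that were not. These are matches of letters and say nothing of binding.

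Among the genes that share the symbols but are no subunits, ATP5IF1 had the lowest value of all. ATP5IF1 encodes the protein that blocks ATP hydrolysis by the synthase when the membrane potential is lost. It was at 60.04, 62.5 and 65.1 CPM in the untreated libraries and 19.9, 19.8 and 17.7 CPM in the rhCYGB libraries, 30.6% of the untreated mean with no overlap (log2 fold change -1.71, SE 0.0589, adjusted p = 8.21e-13). COX7A2L, which joins complexes III and IV into supercomplexes, was at 95.8, 94.1 and 91.4 CPM in the untreated libraries and 164, 153 and 144 CPM in the rhCYGB libraries. It rose further than any subunit gene (log2 fold change 0.71, SE 0.0473, adjusted p = 1.72e-09), in contrast to its paralog COX7A2, and stayed higher under every alternative tried.

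NDUFA4L2, a paralog of NDUFA4 known as a hypoxia-responsive gene, had 0, 0 and 6 counts in the untreated and 25, 25 and 15 counts in the rhCYGB libraries. It was called higher by edgeR's test (adjusted p = 0.000504) on these few counts, and it overlaps SHMT2, which had 7303 counts in a library on average. ATP5MF-PTCD1 (-1.19, adjusted p = 0.120 from edgeR's test), UQCRHL and NDUFA6-DT showed no call, and NDUFC2-KCTD14 and ATP5MGL were too low to test.

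Transcripts of one gene did not always change alike. StringTie's counts per transcript were tested in the same way over 32577 transcripts, of which 14.8% were lower and 15.1% higher. Of 189 tested transcripts of the 91 genes, 76 were lower, 8 higher and 105 without a call. On simulated data this test called 0 of 68 transcripts changed by a log2 size of 1 and 4 of 62 changed by 2. The gene test called 53 of 64 and 58 of 61. Among transcripts of 10 CPM or more it was 13 of 66 and 42 of 68. A missing call thus does not show an unchanged transcript, and these shares cannot be set against those of genes. In UQCRH, the transcript NM_001297565 made up 8.28, 9.48 and 8.93% in the untreated libraries and 22.97, 22.1 and 22.8% in the rhCYGB libraries of the gene's counts. It rose (log2 fold change 0.98, SE 0.0908, adjusted p = 0.000845) while the main transcript NM_006004 fell (log2 fold change -0.62, SE 0.0492, adjusted p = 0.000473, edgeR's test). In NDUFS7, a core subunit of complex I, the longer transcript NM_001363602 made up 11.5, 11.7 and 11.7% in the untreated libraries and 19.7, 21.99 and 23.6% in the rhCYGB libraries. It too rose while the gene fell (log2 fold change 0.46, SE 0.122, adjusted p = 0.0390, against log2 fold change -0.61, SE 0.0956, adjusted p = 0.00635 for NM_024407).

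In NDUFV3 the share of NM_001001503 was 20.6, 16.7 and 20.6% in the untreated libraries and 39.5, 36.6 and 32.5% in the rhCYGB libraries, with no overlap, and its main transcript NM_021075 fell (log2 fold change -0.75, SE 0.0539, adjusted p = 0.000321) while NM_001001503 was at 0.51 without a call. ATP5IF1 kept a larger part of its counts in NM_016311, whose share went from 58.4 to 69.7%. Shares also moved by over 10 percentage points without overlap in COX4I1 (NM_001318794, 16.1 to 0.949%, called lower), NDUFA2 (NR_033697, 4.66 to 18.1%) and NDUFB6 (NM_182739, 5.68 to 15.9%). Minor transcripts of ATP5F1C (NM_001320886, 0.308 to 3.61%) and NDUFA10 (NR_136156, 1.35 to 4.57%) were called higher while their genes were lower. In NDUFC1, NM_001184991 held 172 to 373 counts in untreated and 0 in rhCYGB libraries, but the shares of its 7 listed transcripts varied widely within groups, with NM_001184987 and NM_001184990 over 10 points apart between group means, with overlap.

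Other mean shares lay as far apart while their groups overlapped, and single libraries stood out within a group. In COX4I1 the share of NM_001861 was 87.2, 13.2 and 20.1% in the untreated libraries and 86.2, 86.6 and 83.9% in the rhCYGB libraries, and NM_001318788 went from a mean of 24.1 to 3.87%. The share of NM_001318794 in COX4I1 was 3.18, 41.3 and 3.91% in the untreated libraries and 1.05, 0.958 and 0.842% in the rhCYGB libraries, so its untreated mean rests largely on library 2. In ATP5F1A the share of NM_001001937 was 97.6, 95.8 and 98.6% in the untreated libraries and 96.1, 30.7 and 77.5% in the rhCYGB libraries, and NM_001257335 took 61.6% in rhCYGB library 2 against 0.569 to 3.80% elsewhere. In COX7A2L the share of NM_004718 was 86.5, 78.7 and 79.7% in the untreated libraries and 44.3, 79.2 and 55.7% in the rhCYGB libraries, and NR_134947 went from a mean of 6.44 to 18.5%. Mean shares also lay over 10 points apart with overlap in SDHC (NR_103459, 21.7 to 11.1%) and, on few counts, in NDUFA4L2 (NM_020142). These counts are estimates of how reads divide among overlapping transcripts.

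**Figure D5:**
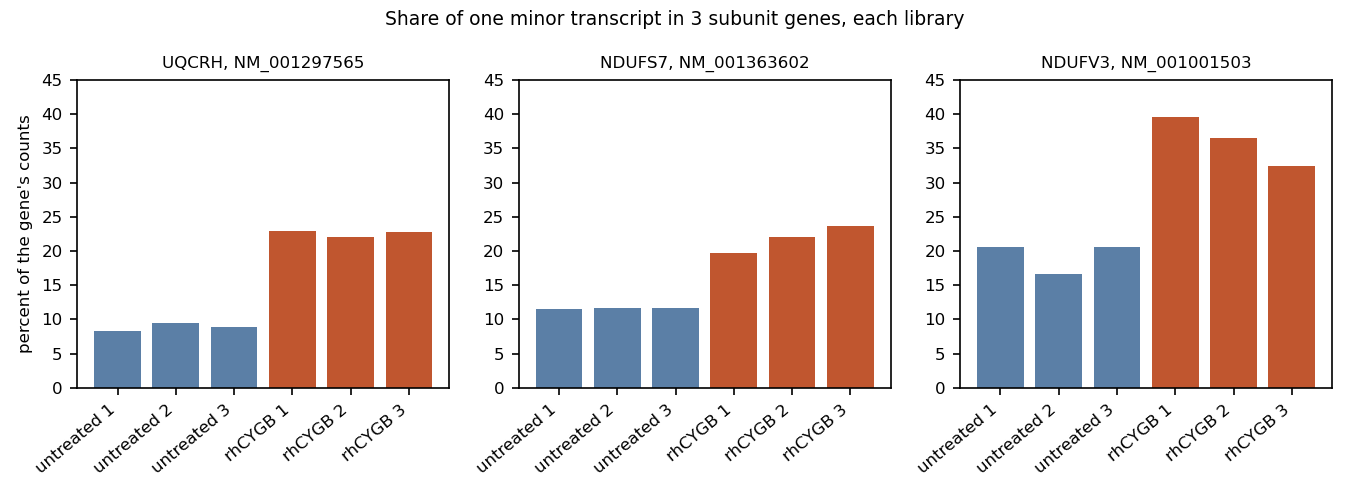
Share of a gene's counts (y axis, percent, from 0) held by one minor transcript of UQCRH, NDUFS7 and NDUFV3 in each library (x axis). The rhCYGB libraries lie at 22.1 to 23% for UQCRH, 19.7 to 23.6% for NDUFS7 and 32.5 to 39.5% for NDUFV3, all above the untreated libraries.

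The counts in the lists that follow are to be read against 38.6% lower and 39% higher among all genes tested. Of 13 subunit genes on mitochondrial DNA, 10 were lower and 3 higher (median log2 fold change -1.02), with CYTB (-1.63) and COX3 (-1.59) lowest and ND4 (0.48) and ND4L (0.24) highest. Protein-coding mitochondrial transcripts took 6.15 to 6.56% of the counts in untreated and 4.25 to 4.45% in rhCYGB libraries, and leaving these genes out of the library sizes kept all 67 lower calls of subunit genes. Assembly factors of complex I had 10 of 19 lower and 6 higher (median -0.29), from NUBPL (-1.21), an iron-sulfur carrier, and TIMMDC1 (-1.10) to NDUFAF4 (0.56) and NDUFAF2 (0.72). Those of complex IV had 12 of 26 lower and 12 higher (median -0.18), shares not far from those of all genes, from COX18 (-1.70) and COA5 (-1.56) to COX10 (0.80), which makes heme O, and the copper chaperone SCO2 (0.92).

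For complex II, 2 of 4 assembly factors were lower and none higher (median -0.29), with SDHAF3 (-0.94) and SDHAF4 (-0.59) lowest and SDHAF2 (0.01) and SDHAF1 (0.21) highest without a call. Complex III had 3 of 6 lower and 2 higher (median -0.22), UQCC1 (-1.22) and LYRM7 (-0.51) lowest and TTC19 (0.11) and UQCC2 (0.49) highest. Complex V had 3 of 4 lower (median -0.75), ATPAF1 (-0.89) and TMEM70 (-0.76) lowest and ATPAF2 (-0.74) and FMC1 (-0.20, without a call) highest. The list for electron carriers and coenzyme Q synthesis was mostly lower, 15 of 18 with 1 higher (median -0.55). Its lowest genes were ETFDH (-1.72), which passes electrons from fatty acid oxidation to coenzyme Q, and PDSS1 (-1.67), which makes the coenzyme's side chain. COQ10B, which binds coenzyme Q, rose (log2 fold change 1.18, SE 0.0563, adjusted p = 3.33e-11), and CYCS, cytochrome c, was at 0.03 without a call.

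Of 12 listed regulators of respiratory genes, which include TFAM, a factor of mitochondrial DNA, PPARGC1A had 0 counts in every library. Of the 11 tested 4 were lower and 7 higher (median 0.50), against 38.6% and 39% of all genes. GABPB1, the partner chain of GABP, rose from 18.6 ± 0.558 to 48.5 ± 1.45 CPM (log2 fold change 1.38, SE 0.0541, adjusted p = 3.26e-12) while GABPA, its DNA-binding chain, fell (log2 fold change -0.34, SE 0.0534, adjusted p = 2.83e-05). PPARGC1B, a coactivator, rose (log2 fold change 0.87, SE 0.0881, adjusted p = 2.51e-07). HCFC1 fell (log2 fold change -0.66, SE 0.0581, adjusted p = 4.78e-08), as did TFAM, which packages mitochondrial DNA (log2 fold change -0.58, SE 0.0480, adjusted p = 2.28e-08). NRF1 was at 0.17 (adjusted p = 0.0320 from edgeR's test).

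Across the 77 tested subunit genes, the log2 fold change had a Spearman correlation of 0.226 with mean CPM and of -0.0495 with mean transcript length. These describe genes measured in the same 6 libraries, which are not independent.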

How the data were processed

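RNA-seq of 6 libraries was analysed, 3 per group, grouped by their labels. Per the labels and the study's methods, libraries came from a stranded mRNA kit and were read in pairs. The submitters' processing notes list FastQC 0.11.7, HISAT2 2.1.0, StringTie 2.1.3b and the genome build mm10, while the rows are human RefSeq genes. The strand setting of the counting is not given in the sources used here. Read counts per gene and per transcript were deposited as unnormalized whole numbers. The deposited FPKM values are scaled to transcript length and depth by the authors. The 12 deposited TPM columns were not used.

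Genes were tested with edgeR 4.0.16 in R 4.3.3 (filterByExpr, TMM, glmQLFit and glmQLFTest, no block, Benjamini-Hochberg adjustment over all genes tested). The common dispersion was 0.00300. The SE of a log2 fold change was derived as its size divided by the square root of the test's F statistic. A call is an adjusted p under 0.05. Fits were tested on simulated data. Alternatives used limma 3.58.1 and DESeq2 1.42.0, and log2(FPKM + 1) and log2(FPKM + 0.1) in place of counts. Summed counts of ATP5MF and its read-through gene were an alternative chosen after seeing the data.

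The members, lists and tests were chosen with earlier results of these data known. Named genes are the 3 lowest and 2 highest of each complex, every member lower by 2-fold or higher, all SDH, ATP5MC and isoform-pair genes, members that are no subunits, and the 2 lowest and 2 highest of each other list. Transcripts are named where called opposite to their gene or where a share moved by 10 percentage points or more, leaving out genes too low to test and the second of 2 transcripts that mirror each other. Other genes were named after their values were seen. Promoter windows are RefSeq's, of GRCh38.p14, and were used for sequence only. Intervals and floors (3 counts) cover counting error only, since reads carry no molecular identifiers. The values of 1 subunit gene are not reported here by name; it is kept in the counts and medians.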

Additional observations from a re-analysis of the deposited data

How the results depend on the processing

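Of the 67 subunit genes called lower, all 67 were kept with DESeq2's size factors, upper-quartile factors, total counts, library sizes without mitochondrial DNA genes, DESeq2's Wald test, no filter, at least 10 counts in every library, counts summed from transcripts and a replicate block. NDUFC1 was lost with limma on FPKM, and NDUFC1 and ATP5F1D with the length trend taken out. Leaving out one library gave 64 to 67 lower, 2 to 4 higher and 5 lower by 2-fold, and lost NDUFC1, ATP5F1D or ATP5ME.

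Higher calls fell to 1 (ATP5MC2) and 2-fold lower calls rose to 10 with upper-quartile factors, total counts, limma on log2(FPKM + 1) and limma on log2(FPKM + 0.1). In that order of the 4 settings, the median log2 fold change was -0.58, -0.61, -0.60 and -0.61 for complex I, -0.74, -0.77, -0.75 and -0.77 for complex II, -0.57, -0.59, -0.58 and -0.59 for complex III, -0.40, -0.42, -0.42 and -0.42 for complex IV, and -0.60, -0.62, -0.62 and -0.62 for complex V. COX5A turned to -0.0277, -0.0516, -0.0505 and -0.0511 without a call, SDHB to -0.07, -0.09, -0.09 and -0.09 without a call, and NDUFB5 to -0.13 and -0.15 with the first 2. With the length trend taken out the medians were -0.54 for complex II and -0.37 for complex III. Placing genes by symbol prefix gave -0.36 for complex III and -0.18 for complex IV, since UQCRHL joined the first and COX7A2L replaced NDUFA4 in the second. The cause of the other shifts was not tested.

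With the replicate block, 67 subunit genes were lower and 3 higher, as without it. Deviations of same-numbered libraries had correlations of -0.0479, 0.00715 and 0.00554, and those of other pairs lay between -0.0551 and 0.0536. With 3 libraries per group, these values cannot show whether a number marks a shared culture or batch. ATP5MF-PTCD1 was called lower under the block (-1.79, adjusted p = 0.00677 from edgeR's test), with limma on FPKM, and without rhCYGB library 1 (-3.85, adjusted p = 4.14e-06). The depth left the tissue forms of complex IV, NDUFA4L2 and NDUFC2-KCTD14 with few or no counts. Among all calls 49.8% were lower with TMM factors and 59.0% with total counts.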

Other observations

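The tricarboxylic acid cycle, which supplies the electrons of complexes I and II, was measured in 14 genes. Of these, 9 were lower and 3 higher (median log2 fold change -0.27, edgeR's call as above), against 38.6% lower and 39% higher among all genes tested. IDH2, the NADP-dependent isocitrate dehydrogenase of mitochondria, fell from 71.7 ± 0.830 to 32.2 ± 0.647 CPM (log2 fold change -1.15, SE 0.0455, adjusted p = 3.59e-12), and SUCLA2, a chain of succinyl-CoA ligase, from 37.4 ± 1.38 to 18.1 ± 2.51 CPM (log2 fold change -1.04, SE 0.0795, adjusted p = 8.77e-09). IDH3G and DLST had the highest values, 0.46 and 0.27, both called higher.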
